A study of Homo sapiens with 24 samples.

Results

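The genes described here are 8 enzymes of fatty acid synthesis and malonyl-CoA metabolism, namely ACLY, ACSS2, ACACA, ACACB, FASN, OLAH, MLYCD and MCAT. They were chosen by gene symbol, and all 8 were present among the 14493 genes of the count table. Their transcripts were measured by RNA-seq. The 24 libraries came from SKBr3, an established human breast cancer cell line with ERBB2 (HER2) amplification, in 8 groups of 3 replicates. ND-646, an inhibitor of both acetyl-CoA carboxylases (the products of ACACA and ACACB), and TVB-3166, an inhibitor of fatty acid synthase (the product of FASN), were each given at 250 nmol/L. The 4 other senescence inducers were alisertib (an Aurora A kinase inhibitor) at 500 nmol/L, doxorubicin (a topoisomerase II poison) at 10 nmol/L, bleomycin (a DNA-cleaving agent) at 10 µmol/L, and palbociclib (a CDK4/6 inhibitor) at 1 µmol/L. Treated cells were refed on day 3 and collected on day 7, and untreated cells were collected at day-0 (labelled proliferative) and at day-7. Each drug was tested in 1 cell line at 1 dose, and only ND-646 and TVB-3166 had the same dose. A comparison with day-0 cells combines the drug with 7 days of culture, so the untreated day-7 cells were used as a second reference. Their labels name no refeeding, so in that comparison the drug and the refeeding of treated cells cannot be told apart.

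Fatty acid synthesis starts in the cytosol from acetyl-CoA. ACLY makes acetyl-CoA from citrate and ACSS2 makes it from acetate, the carboxylases ACACA and ACACB convert it to malonyl-CoA, and FASN builds palmitate by adding malonyl units. Malonyl-CoA also blocks CPT1, the entry step of mitochondrial fatty acid oxidation, and breast cancers with HER2 amplification are known for high FASN levels.

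Counts assigned to genes ranged from 29405121 to 44316330 per library. All 6 markers of an epithelial, HER2-amplified line were abundant in all 24 libraries, with 5125 to 8828 CPM (counts scaled to the library total and multiplied by 1e6, after TMM normalization) for ERBB2 and 269.9 to 597 CPM for EPCAM. Of the 5 markers of other cells, COL1A1 lay between 6.46 and 15.2 CPM, and ESR1, PGR, VIM and PTPRC were not among the genes analysed here. In bulk RNA, fewer cells of a type and less RNA per cell cannot be told apart. The labels do not say that replicates came from separate cultures, so p-values measure the spread between these libraries, which may be technical.

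Promoter sequence was matched to RefSeq (GRCh38.p14) by gene symbol for 6 of the 8 genes (FASN and OLAH were not matched), in 12 windows of 250 bases ending just before an annotated start site. The windows of ACSS2, which rose under both lipogenesis inhibitors, and of ACACB, which fell under both, are shown 5′ to 3′ on the gene's strand, the plus strand for both. The ACSS2 windows are chr20:34874739-34874988 and chr20:34876362-34876611, and the ACACB windows are chr12:109116337-109116586 and chr12:109154429-109154678. Capitals mark matches on either strand to the CCAAT box (CCAAT) or the GC box (GGGCGG), which can share the letters GG where ATTGG, the CCAAT box read on the other strand, runs into a GC box.
ACSS2 upstream start site: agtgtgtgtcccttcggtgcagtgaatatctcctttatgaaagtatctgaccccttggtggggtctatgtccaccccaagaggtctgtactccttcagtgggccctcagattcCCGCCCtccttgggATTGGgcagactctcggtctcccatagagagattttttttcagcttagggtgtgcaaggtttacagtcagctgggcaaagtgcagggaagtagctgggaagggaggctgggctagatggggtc
ACSS2 downstream start site: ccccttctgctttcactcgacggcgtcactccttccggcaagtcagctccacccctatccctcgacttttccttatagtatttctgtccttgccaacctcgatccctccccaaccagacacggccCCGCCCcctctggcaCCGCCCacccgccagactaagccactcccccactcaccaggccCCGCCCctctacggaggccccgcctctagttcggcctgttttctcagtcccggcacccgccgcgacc
ACACB upstream start site: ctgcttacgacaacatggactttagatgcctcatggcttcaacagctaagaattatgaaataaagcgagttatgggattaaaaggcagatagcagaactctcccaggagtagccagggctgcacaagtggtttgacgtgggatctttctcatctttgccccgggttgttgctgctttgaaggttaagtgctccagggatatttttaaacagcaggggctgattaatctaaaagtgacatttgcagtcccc
ACACB downstream start site: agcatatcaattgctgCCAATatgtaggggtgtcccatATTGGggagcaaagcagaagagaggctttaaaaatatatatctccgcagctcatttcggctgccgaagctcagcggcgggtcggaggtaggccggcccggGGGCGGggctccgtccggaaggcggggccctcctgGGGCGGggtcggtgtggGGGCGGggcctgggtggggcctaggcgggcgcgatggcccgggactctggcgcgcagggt
The sterol response element (TCACNCCAC, bound by SREBP factors) matched 0 of the 12 windows and the E-box (CACGTG) also matched 0, against 0.883% and 6.35% of 35116 RefSeq windows of the same length. At these rates 0 matches in 12 windows would be common for any genes, so these counts do not set the members apart. A CCAAT box was found in 7 of the 12 windows, against 32.0% of all windows, and a GC box in 10, against 42.6%. Several of the 12 windows overlap each other. The upstream ACACB window held no match to any of the 4 motifs, whereas the downstream window held 2 CCAAT boxes and 3 GC boxes.

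Under both lipogenesis inhibitors FASN, ACSS2 and ACACA rose and ACACB and OLAH fell against day-0 cells (edgeR's quasi-likelihood test, Benjamini-Hochberg adjusted p under 0.05 over all genes tested, hereafter called). In ND-646 cells 3 of the 8 genes were called higher and 2 lower, against 19.1% and 18.8% of all genes tested. TVB-3166 cells had 4 higher and 3 lower, against 27.4% and 27.7%. The counts were 3 higher and 2 lower with bleomycin (all genes 24.1% and 25.3%), 6 higher and 0 lower with alisertib (17.7% and 19.6%), 3 higher and 1 lower with doxorubicin (23.7% and 24.8%), and 4 higher and 2 lower with palbociclib (26% and 27.2%). The 6 genes higher with alisertib were the largest count in 1 direction. The median log2 fold change of the 8 genes was 0.52 in alisertib cells (all genes -0.01), 0.23 in TVB-3166 cells (all genes -0.01) and -0.08 in ND-646 cells (all genes 0.02).

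Culture for 7 days without drug gave few calls among the 8 genes. For ACACB, FASN, OLAH and ACLY, however, every day-7 library lay above every day-0 library. Untreated day-7 cells had 1 called higher and 0 lower against day-0 cells, with 0.389% and 0.198% of all genes called. That gene was ACACB (0.60 ± 0.11 on the log2 scale), and 4 of the 8 had an unadjusted p under 0.05. FASN (0.56 ± 0.15, adjusted p = 0.0873) and OLAH (1.13 ± 0.24, adjusted p = 0.0596) were not called by edgeR, but DESeq2 called both. FASN was also called without day-0 replicate 1 (0.67, edgeR adjusted p = 0.0474), and OLAH with all 24 libraries in one fit (1.12, edgeR adjusted p = 0.0399). The ACACB call (edgeR adjusted p = 0.0474) was lost when any 1 of the 6 libraries was left out. Its adjusted p was 0.0526, 0.125 and 0.0572 without day-0 replicates 1, 2 and 3, and 0.0726, 0.152 and 0.174 without day-7 replicates 1, 2 and 3. It was 0.167 with all 24 libraries in one fit.

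Against the untreated day-7 cells, 2 genes were higher and 3 lower in ND-646 cells (all genes 17.2% and 17.1%), and 4 were higher and 3 lower in TVB-3166 cells (25.4% and 26.1%). Bleomycin left 1 higher and 1 lower (22.4% and 23.2%), alisertib 4 higher and 0 lower (9.55% and 9.49%), doxorubicin 1 higher and 1 lower (21.9% and 21.5%), and palbociclib 2 higher and 1 lower (22% and 22.9%). All comparisons with 1 reference share its 3 libraries. The plot of the changes under each drug shows both sets of values.

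The enzymes that supply acetyl-CoA moved unequally. ACSS2 (gene ID 55902, chr20:33459949-33515765 on GRCh37, plus strand), the acetate-activating enzyme, held 88.0, 80.0 and 70.3 CPM in day-0 libraries and 94.2, 92.6 and 83.7 CPM in day-7 libraries. It reached 415, 202 and 291 CPM in ND-646 libraries and 528, 283 and 421 CPM in TVB-3166 libraries. The lowest of these 6 was above the highest of all other libraries, 148 CPM in a bleomycin library. The rise against day-0 cells was 3.77-fold in ND-646 cells (log2 fold change 1.91 ± 0.25 SE, edgeR adjusted p = 0.000541) and 5.19-fold in TVB-3166 cells (2.38 ± 0.19, adjusted p = 3.42e-06). Against day-7 cells edgeR gave 1.73 ± 0.24 (adjusted p = 0.0011) and 2.19 ± 0.18 (adjusted p = 4.24e-06).

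Smaller ACSS2 rises were called against day-0 cells with alisertib (0.64 ± 0.10 on the log2 scale), bleomycin (0.61 ± 0.15) and palbociclib (0.30 ± 0.10). Doxorubicin was not called (0.28 ± 0.12, adjusted p = 0.0847), but was without day-0 replicate 1 (0.36, adjusted p = 0.0385). Leaving out day-0 replicate 2 or 3 or palbociclib replicate 2 or 3 ended the palbociclib call (edgeR adjusted p = 0.0621, 0.104, 0.128 and 0.0577). Against day-7 cells alisertib (0.47 ± 0.08) and bleomycin (0.43 ± 0.14) were called. The latter call was lost without bleomycin replicate 2 (0.26) or day-7 replicate 1, 2 or 3 (adjusted p = 0.0684, 0.0583, 0.0633 and 0.113). With all 24 libraries in one fit the palbociclib call against day-0 (adjusted p = 0.242) and both calls against day-7 cells (adjusted p = 0.195 for alisertib and 0.108 for bleomycin) were lost.

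ACLY (gene ID 47, chr17:40023170-40086795, minus strand), the citrate-cleaving enzyme, was more abundant and changed under fewer drugs. Its level was 998, 1077 and 992 CPM in day-0 libraries, 1167, 1085 and 1099.8 CPM in day-7 libraries, 1130.4, 1003 and 1336 CPM in ND-646 libraries, and 1984, 1287 and 1682 CPM in TVB-3166 libraries. The ND-646 range overlapped day-0 and day-7 cells, and edgeR gave a log2 fold change of 0.17 ± 0.18 (adjusted p = 0.491). All 3 TVB-3166 libraries were above the untreated ones, and ACLY rose by 0.70 ± 0.15 against day-0 (adjusted p = 0.00241) and 0.57 ± 0.13 against day-7 cells (adjusted p = 0.00468). Alisertib cells, at 1407 ± 39.9 CPM (SD, n = 3), were also called against both references (0.46 ± 0.10 and 0.35 ± 0.07), the second not without day-7 replicate 3 (adjusted p = 0.0544) or with all 24 libraries in one fit (adjusted p = 0.101). Bleomycin cells had the lowest level, 926 ± 62.3 CPM (SD, n = 3). Their log2 fold change against day-7 cells was -0.26 ± 0.10 (edgeR adjusted p = 0.0502), which was called with the replicate number as a block (-0.26, adjusted p = 0.0217) and without bleomycin replicate 1 (-0.30, adjusted p = 0.0499).

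Per kilobase of the canonical transcript, the ratio of the ACLY level to the ACSS2 level was 8.71 ± 0.973 in day-0 cells and 8.34 ± 0.478 in day-7 cells (SD, n = 3). It was 2.75 ± 0.807 in ND-646 cells and 2.76 ± 0.273 in TVB-3166 cells. Bleomycin cells had 5.34 ± 1.33, and the 3 other drugs had means of 7.69 to 7.91. No library of the lipogenesis inhibitors reached the lowest bleomycin ratio, 3.89, or the lowest untreated ratio, 7.62.

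The carboxylase genes moved in opposite directions under the lipogenesis inhibitors. ACACA (gene ID 31, chr17:35441927-35766927, minus strand) encodes the cytosolic form that feeds fatty acid synthesis. Day-0 libraries held 154, 125 and 113 CPM, day-7 libraries 165, 154 and 148 CPM, ND-646 libraries 169, 216 and 292 CPM, and TVB-3166 libraries 262, 186 and 245 CPM. Every one of the 6 inhibitor libraries exceeded every untreated library, the closest being 169 against 165 CPM. ACACA rose by 0.83 ± 0.15 in TVB-3166 cells (log2 scale, edgeR adjusted p = 0.000625) and by 0.78 ± 0.22 in ND-646 cells (adjusted p = 0.0226). The ND-646 call was lost without day-0 replicate 2, day-0 replicate 3 or ND-646 replicate 3 (adjusted p = 0.0866, 0.0938 and 0.0761).

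Against day-7 cells ACACA was called in TVB-3166 cells (0.57 ± 0.12, edgeR adjusted p = 0.00173) but not in ND-646 cells (0.53 ± 0.20, adjusted p = 0.0728). Without ND-646 replicate 1 that value was 0.70 with an adjusted p of 0.000556, and with all 24 libraries in one fit it was 0.54 with an adjusted p of 0.00812. Smaller rises against day-0 cells were called with alisertib (0.58 ± 0.12), doxorubicin (0.52 ± 0.12) and palbociclib (0.30 ± 0.11). The last was lost without day-0 replicate 2 or 3 or palbociclib replicate 1, 2 or 3 (adjusted p = 0.106, 0.136, 0.0754, 0.0949 and 0.108). Bleomycin gave 0.21 ± 0.14 (adjusted p = 0.232). The rises with alisertib (0.34 ± 0.09) and doxorubicin (0.28 ± 0.09) were also called against day-7 cells. The alisertib call was lost without alisertib replicate 1 or 3 or day-7 replicate 3 (adjusted p = 0.0651, 0.0829 and 0.0938), and the doxorubicin call without day-7 replicate 2 or 3 or doxorubicin replicate 2 or 3 (adjusted p = 0.0629, 0.122, 0.0515 and 0.0986). With all 24 libraries in one fit the palbociclib call against day-0 (adjusted p = 0.119) and the alisertib and doxorubicin calls against day-7 cells (adjusted p = 0.225 and 0.229) were lost.

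ACACB (gene ID 32, chr12:109554392-109706031, plus strand) encodes the carboxylase at the outer mitochondrial membrane, whose malonyl-CoA restrains CPT1. It held 37.9, 46.3 and 42.0 CPM in day-0 libraries and 67.2, 58.0 and 64.3 CPM in day-7 libraries. ND-646 libraries held 4.71, 8.86 and 10.6 CPM, TVB-3166 libraries 21.5, 23.6 and 26.0 CPM, and bleomycin libraries 18.9, 6.87 and 14.8 CPM. All 9 were below every untreated library, the ND-646 and bleomycin ranges overlapped, and the TVB-3166 range lay above both. Palbociclib libraries came next, at 25.1, 25.4 and 30.4 CPM.

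ACACB fell by 2.39 ± 0.28 on the log2 scale in ND-646 cells (edgeR adjusted p = 0.00033), by 1.63 ± 0.29 in bleomycin cells (adjusted p = 0.00154), by 0.82 ± 0.12 in TVB-3166 cells (adjusted p = 0.000137), and by 0.64 ± 0.12 in palbociclib cells (adjusted p = 0.00108), all against day-0. Doxorubicin was not called (-0.08 ± 0.12). In alisertib cells ACACB was higher (0.36 ± 0.11, adjusted p = 0.0254), a call lost without alisertib replicate 3 (0.27, adjusted p = 0.126) and with all 24 libraries in one fit (adjusted p = 0.264). Against day-7 cells, in which ACACB was highest, it fell by 2.97 in ND-646, by 2.21 in bleomycin, by 1.41 in TVB-3166, by 1.22 in palbociclib and by 0.66 in doxorubicin cells, all 5 called. Alisertib gave -0.21 ± 0.09 against day-7 cells (adjusted p = 0.128), which was called with the replicate number as a block (-0.22, adjusted p = 0.0461).

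Per kilobase of canonical transcript, ACACB made up 25.9 ± 4.36% of the summed ACACA and ACACB level in day-0 cells and 30.2 ± 1.48% in day-7 cells (SD, n = 3). Its share was 3.61 ± 0.660% in ND-646 cells, 8.46 ± 2.75% in bleomycin cells, 10.1 ± 1.92% in TVB-3166 cells and 15.1 ± 1.199% in palbociclib cells. Doxorubicin (18.4 ± 1.52%) and alisertib (22.8 ± 2.07%) were nearest to the untreated cells. The ratio of the ACACA level to the ACACB level was 2.95 ± 0.737 in day-0 cells, 9.19 ± 2.02 in TVB-3166 cells, 11.9 ± 4.95 in bleomycin cells and 27.4 ± 5.53 in ND-646 cells. The lowest ND-646 library (22.8) was above the highest library of any other group (17.6, bleomycin).

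FASN (gene ID 2194, chr17:80036214-80056170, minus strand), the synthase itself and the target of TVB-3166, was the fifth most abundant of the 14493 genes by mean CPM. Day-0 libraries held 4532, 4223 and 3116 CPM and day-7 libraries 6341, 5751 and 5286 CPM. The 3 ND-646 libraries held 14401, 14348 and 17670.1 CPM, and the TVB-3166 libraries 15336, 11360.1 and 15964 CPM. Each of these 6 libraries lay above every other library, and the ranges of the inhibitors overlapped each other. FASN transcripts took 0.381% of all counts in day-0 cells and 1.38% and 1.39% in ND-646 and TVB-3166 cells (means of 3 libraries).

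Relative to day-0 cells FASN rose 3.88-fold in ND-646 cells (log2 fold change 1.96 ± 0.25 SE, edgeR adjusted p = 0.000564) and 3.61-fold in TVB-3166 cells (1.85 ± 0.18, adjusted p = 1.16e-05). Against day-7 cells the rises were 2.65-fold (adjusted p = 0.00127) and 2.46-fold (adjusted p = 1.79e-05). FASN was the one member called higher under all 6 drugs against day-0 cells. Alisertib followed with 9239 ± 164 CPM (SD, n = 3), a log2 fold change of 1.22 ± 0.14 against day-0 and 0.69 ± 0.09 against day-7 cells. Palbociclib cells held 7726 ± 1205 CPM (SD, n = 3), with 0.96 ± 0.17 and 0.42 ± 0.12, and the second call was lost without day-7 replicate 3 or palbociclib replicate 2 (adjusted p = 0.0774 and 0.0558) and with all 24 libraries in one fit (adjusted p = 0.0784). Doxorubicin (0.69 ± 0.20) and bleomycin (0.56 ± 0.18) were called against day-0 cells, and against day-7 cells they were not (0.15 ± 0.16 and 0.02 ± 0.14). The doxorubicin call was lost without day-0 replicate 3 or doxorubicin replicate 2 (adjusted p = 0.0632 and 0.0596), and the bleomycin call without bleomycin replicate 1 or 2 or day-0 replicate 2 or 3 (adjusted p = 0.0629, 0.0797, 0.0685 and 0.121). Per kilobase of canonical transcript the FASN to ACACA ratio was 35.8 ± 3.85 in day-0, 43.97 ± 1.61 in day-7 cells, 83.6 ± 15.3 with ND-646 and 72.8 ± 3.90 with TVB-3166, against means of 40.2 to 56.6 with the 4 other drugs.

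**Figure D1:**
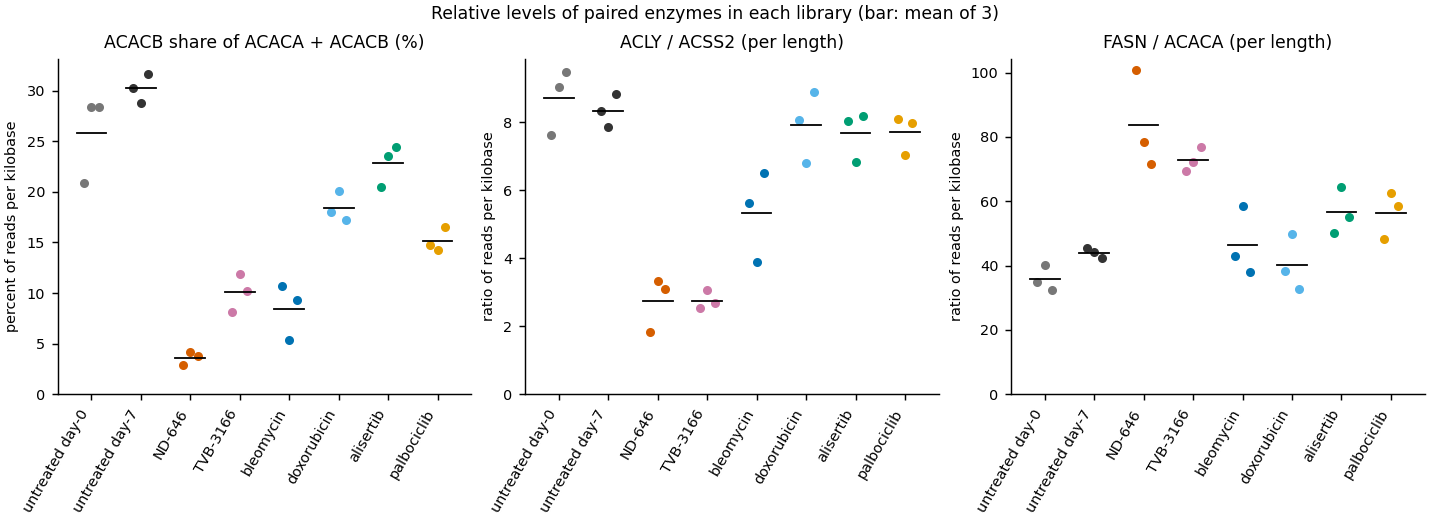
ACACB share of the summed ACACA and ACACB level (percent), ratio of ACLY to ACSS2 and ratio of FASN to ACACA in each library (points, y axis), by group (x axis), all per kilobase of canonical transcript, with the mean of 3 libraries as a bar. The ACACB share was 3.61% in ND-646 and 30.2% in untreated day-7 cells, and the ACLY to ACSS2 ratio was 2.75 and 2.76 in ND-646 and TVB-3166 cells.

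OLAH (gene ID 55301, chr10:15074226-15115852, plus strand), the thioesterase that can release shorter fatty acids from FASN, was the least abundant member and had the widest range, 84.8-fold between its highest and lowest library. Day-0 libraries held 1.42, 1.53 and 1.54 CPM and day-7 libraries 2.47, 3.65 and 3.68 CPM. ND-646 libraries held 0.0857, 0.682 and 0.211 CPM, which were 2, 19 and 6 counts, and TVB-3166 libraries 0.167, 0.253 and 0.103 CPM, which were 5, 8 and 3 counts. All 6 lay below every other library. Over the pooled counts, 27 in ND-646 and 16 in TVB-3166 against 156 in day-0 cells, the level was 0.227 times (95% exact interval 0.145 to 0.343) and 0.118 times (0.0659 to 0.198) that of day-0 cells, where the interval covers counting error only.

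The edgeR log2 fold change of OLAH against day-0 cells was -2.16 ± 0.55 in ND-646 cells (adjusted p = 0.0147) and -3.06 ± 0.37 in TVB-3166 cells (adjusted p = 4.58e-05). Without ND-646 replicate 2, the library with 19 counts, the first value was -3.28 (adjusted p = 0.00234), and the call was lost without ND-646 replicate 3 (-1.92, adjusted p = 0.0504). Against day-7 cells the changes were -3.28 ± 0.55 (adjusted p = 0.00265) and -4.18 ± 0.35 (adjusted p = 4.57e-06), and the first was -4.40 without ND-646 replicate 2.

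OLAH rose under the 4 other drugs. Palbociclib libraries were highest, at 6.98, 7.11 and 7.27 CPM, above every library of any other group. Doxorubicin libraries followed (4.10, 4.16 and 5.72 CPM), then bleomycin (3.26, 3.26 and 4.24 CPM) and alisertib (2.42, 3.29 and 3.16 CPM). Against day-0 cells the log2 fold changes were 2.25 ± 0.18 with palbociclib, 1.65 ± 0.21 with doxorubicin, 1.26 ± 0.24 with bleomycin and 0.98 ± 0.22 with alisertib, all called. Against day-7 cells palbociclib was called (1.14 ± 0.18, edgeR adjusted p = 0.000546), while doxorubicin had 0.54 ± 0.22 (adjusted p = 0.06 by edgeR, 0.0464 by DESeq2), bleomycin 0.15 ± 0.23 and alisertib -0.12 ± 0.22.

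MLYCD (gene ID 23417, chr16:83932720-83985050, plus strand), which turns malonyl-CoA back to acetyl-CoA, moved little. Its day-0 libraries held 13.5, 13.4 and 11.4 CPM, ND-646 libraries 10.6, 9.58 and 10.9 CPM, and TVB-3166 libraries 10.1, 11.4 and 10.9 CPM. Against day-0 cells edgeR called 0 of the 6 drugs, 1 had an unadjusted p under 0.05, and DESeq2 called 0. With all 24 libraries in one fit edgeR called MLYCD lower with ND-646 (-0.31, adjusted p = 0.0414) and higher with palbociclib (0.31, adjusted p = 0.0385). Against day-7 cells (14.2 ± 1.28 CPM, SD, n = 3) MLYCD fell by 0.46 ± 0.15 in ND-646 cells (log2 scale, edgeR adjusted p = 0.0458) and by 0.39 ± 0.12 in TVB-3166 cells (adjusted p = 0.0196). The ND-646 call was lost without day-7 replicate 1, 2 or 3 or ND-646 replicate 2 or 3 (adjusted p = 0.143, 0.133, 0.088, 0.132 and 0.0806). The TVB-3166 call was lost without day-7 replicate 1 or 2 or TVB-3166 replicate 1 or 3 (adjusted p = 0.0575, 0.0523, 0.0573 and 0.0516). Exons of MLYCD share 457 bases with OSGIN1 on the same strand, a gene at 12.2 CPM in day-0 and 46.8 and 40.7 CPM in ND-646 and TVB-3166 cells. They also share 1706 bases with a long non-coding RNA gene on the same strand, which was not among the genes analysed here. The part of these shared bases in the MLYCD values was not tested.

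MCAT (gene ID 27349, chr22:43528215-43539404, minus strand), the malonyl transferase of mitochondrial fatty acid synthesis, had slightly lower means in the treated groups than in day-0 cells, and not every drug was called. It held 39.5, 45.3 and 36.5 CPM in day-0 libraries, 38.1, 32.5 and 38.6 CPM in day-7 libraries, 36.7, 26.4 and 28.1 CPM in ND-646 libraries, and 36.1, 29.7 and 27.9 CPM in TVB-3166 libraries. With the 8 groups in order of their means, every neighbouring pair overlapped. MCAT fell by 0.37 ± 0.12 in TVB-3166, by 0.42 ± 0.12 in bleomycin, by 0.32 ± 0.12 in doxorubicin and by 0.36 ± 0.12 in palbociclib cells against day-0 (log2 scale), with edgeR adjusted p of 0.0264, 0.0178, 0.0456 and 0.0292. All 4 calls were lost without day-0 replicate 2. Leaving out that library or TVB-3166 replicate 2 or 3 gave an adjusted p of 0.106, 0.0872 and 0.114 for TVB-3166, that library or bleomycin replicate 3 gave 0.0763 and 0.067 for bleomycin, that library or doxorubicin replicate 1 or 3 gave 0.165, 0.125 and 0.169 for doxorubicin, and that library or palbociclib replicate 2 or 3 gave 0.133, 0.0596 and 0.123 for palbociclib. Alisertib was not called (-0.20 ± 0.10, edgeR adjusted p = 0.1455). In ND-646 cells the change was -0.43 ± 0.17 (adjusted p = 0.0776), and -0.58 without ND-646 replicate 1 (adjusted p = 0.00393). With all 24 libraries in one fit the ND-646 change was called (-0.41, adjusted p = 0.0105). Against day-7 cells edgeR called 0 of the 6 drugs, 1 had an unadjusted p under 0.05, and DESeq2 called 0. There ND-646 and TVB-3166 were called without their replicate 1 (-0.43, adjusted p = 0.00784, and -0.34, adjusted p = 0.0268), and bleomycin without day-7 replicate 2 (-0.34, adjusted p = 0.0464).

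A direct test compared the lipogenesis inhibitors with the 4 other drugs, with the mean of ND-646 and TVB-3166 set against the mean of the others over the 18 treated libraries. Of the 8 genes 4 were higher and 3 lower, against 26.1% and 24% of all genes tested. OLAH differed most (-4.13 ± 0.27 on the log2 scale, edgeR adjusted p = 4.14e-09, and -4.88 without the libraries numbered 2). It was followed by ACSS2 (1.70 ± 0.14, adjusted p = 4.55e-08), ACACB (-1.09 ± 0.18, adjusted p = 6.46e-05) and FASN (1.06 ± 0.11, adjusted p = 5.72e-07). Not every pair of groups followed the ACACB contrast, since bleomycin libraries were below TVB-3166 libraries. MLYCD was lower (-0.49 ± 0.08, adjusted p = 7.05e-05), and ACACA (0.41 ± 0.10, adjusted p = 0.00238) and ACLY (0.30 ± 0.08, adjusted p = 0.00542) were higher by smaller amounts. The ACLY contrast did not hold for every pair of groups either. Alisertib libraries (1361.7 to 1436.3 CPM) were all above ND-646 libraries (1002.8 to 1336.4 CPM). The ACACA call was lost without the libraries numbered 3 (adjusted p = 0.0904), and the ACLY call without those numbered 1 or 3 (adjusted p = 0.0593 and 0.148). MCAT was not called (-0.06 ± 0.08, adjusted p = 0.566).

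ND-646 and TVB-3166 were compared directly at their common dose. By edgeR 0 of the 7 members tested were called, with 0.52% of all genes higher and 0.198% lower in TVB-3166 cells, 2 of the 7 had an unadjusted p under 0.05, and DESeq2 called 1. The 2 were ACACB (1.56 ± 0.28 on the log2 scale, unadjusted p = 0.00054 and adjusted p = 0.0538 by edgeR) and ACLY (0.52 ± 0.20, unadjusted p = 0.0304 and adjusted p = 0.274 by edgeR). ACACB, whose 3 TVB-3166 libraries were all above the 3 ND-646 libraries, was called with the replicate number as a block (1.62, adjusted p = 0.0223), by DESeq2 (adjusted p = 1.58e-05) and without ND-646 replicate 1 (1.29, adjusted p = 0.000905). With all 24 libraries in one fit both genes were called. FASN (-0.11 ± 0.21) and ACACA (0.04 ± 0.22) lay near 0, ACSS2 was at 0.45 ± 0.30 (adjusted p = 0.528), and OLAH had too few counts to be tested.

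The 3 replicate libraries ranked in the same order under both inhibitors for ACSS2, ACACB and FASN, and in different orders for the other 5 members. For ACSS2 replicate 1 was the highest and replicate 2 the lowest in both groups, whereas for ACACA replicate 1 was the lowest with ND-646 and the highest with TVB-3166.

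Across the 8 group means of log2 CPM the members fell into patterns, given here as a description of 8 points. FASN was most like ACACA (Pearson r = 0.937) and ACSS2 (r = 0.902), and OLAH was most like MLYCD (r = 0.980) and unlike ACSS2 (r = -0.885). Of 14078 genes, those nearest to a member were STARD4 (r = 0.984) and NDST2 (r = 0.979) for ACSS2, CCDC24 (r = 0.989) and CERCAM (r = 0.981) for FASN, and SHANK2 (r = 0.961) and E4F1 (r = 0.959) for ACLY. They were RUSC1-AS1 (r = 0.976) and MIR6777 (r = 0.974) for ACACA. In RefSeq, MIR6777 lies inside SREBF1 and RUSC1-AS1 overlaps RUSC1 and FDPS, and whether their counts hold reads of those genes was not tested. The others were DDAH1 (r = 0.979) and NUP205 (r = 0.978) for ACACB, RILPL2 (r = 0.991) and ZBED4 (r = 0.990) for OLAH, FABP6 (r = 0.985) and STARD8 (r = 0.981) for MLYCD, and RTEL1 (r = 0.991) and CLN6 (r = 0.990) for MCAT.

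The 3 enzymes described here that supply NADPH, the reductant of FASN, rose under both lipogenesis inhibitors. ME1, the malic enzyme, rose by 1.72 ± 0.16 on the log2 scale with ND-646 and 1.59 ± 0.09 with TVB-3166 against day-0 cells. IDH1, the cytosolic isocitrate dehydrogenase, rose by 1.71 ± 0.14 and 1.25 ± 0.09, and PGD, an enzyme of the pentose phosphate pathway, by 0.86 ± 0.14 and 0.37 ± 0.10. ME1 was also higher in untreated day-7 cells (0.77 ± 0.14). The direct test of the lipogenesis inhibitors against the 4 other drugs called all 3 genes higher, at 0.61 ± 0.08 for IDH1, 0.50 ± 0.08 for ME1 and 0.47 ± 0.09 for PGD. Some other drugs overlapped TVB-3166 libraries. For PGD bleomycin libraries held 325.3, 533.0 and 382.8 CPM and TVB-3166 libraries 359.7, 341.2 and 381.3 CPM. For ME1 the alisertib mean was 360.4 CPM and the TVB-3166 mean 375.1 CPM. For IDH1 palbociclib reached 267.4 CPM, and TVB-3166 libraries held 247.7, 264.4 and 266.4 CPM. The medians over all genes were 0.02 with ND-646 and -0.01 with TVB-3166.

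Of the 11 transcription factors of lipogenesis and their regulators, 6 were higher with ND-646 (all genes 19.1%) and 5 with TVB-3166 (all genes 27.4%), and 0 were lower with either (all genes 18.8% and 27.7%, list median log2 fold change 0.56 and 0.28). Alisertib cells also had 5 higher and 0 lower against day-0 (all genes 17.7% and 19.6%). The count was 4 higher and 0 lower with doxorubicin (23.7% and 24.8%) and with palbociclib (26% and 27.2%). Bleomycin cells had 3 higher and 0 lower (24.1% and 25.3%). SREBF1, which encodes the SREBP-1 factors that drive lipogenic genes, held 612, 871 and 795 CPM in day-0, 3100.1, 2360.4 and 3137 CPM in ND-646 and 2566, 2096 and 2768 CPM in TVB-3166 libraries. It rose by 1.90 ± 0.22 and 1.71 ± 0.16 on the log2 scale. INSIG1, which holds SREBPs in the endoplasmic reticulum and is itself an SREBP target, rose by 2.65 ± 0.28 and 2.75 ± 0.17, and was also higher in untreated day-7 cells (0.84 ± 0.11). SREBF2, the sterol-pathway factor (0.61 ± 0.16 and 0.69 ± 0.11), INSIG2 (0.86 ± 0.18 and 0.74 ± 0.16) and MLXIPL, the glucose-responsive factor ChREBP (1.05 ± 0.26 and 1.38 ± 0.24), were called in both. Against untreated day-7 cells MLXIPL was called with neither inhibitor (0.18 ± 0.21 and 0.50 ± 0.20, edgeR adjusted p = 0.548 and 0.0548), and untreated culture gave 0.89 ± 0.20 (adjusted p = 0.0692). SREBF2 with ND-646 was not called against them either (0.34 ± 0.14, adjusted p = 0.0948). USF2, named after its value was seen, was called in ND-646 cells (0.49 ± 0.17, edgeR adjusted p = 0.0499) and not in TVB-3166 cells (0.12 ± 0.10), but it was called in both against day-7 cells (0.61 ± 0.16 and 0.23 ± 0.09). Alisertib cells were also called higher against day-0 for SREBF1 (0.84 ± 0.13), INSIG1 (1.44 ± 0.10) and SREBF2 (0.41 ± 0.09). Bleomycin cells were called for INSIG1 (0.82 ± 0.14) and not for SREBF1 (0.09 ± 0.16). The INSIG2 mean was 29.14 CPM with palbociclib and 29.54 CPM with TVB-3166. In the direct test against the 4 other drugs SREBF1 was higher by 1.27 ± 0.08 and INSIG1 by 1.79 ± 0.13, and MLXIPL was not called (0.12 ± 0.14).

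Cofactor and carboxylase regulation genes were mixed, with 5 of 13 higher and 2 lower in ND-646 cells (all genes 19.1% and 18.8%, list median log2 fold change 0.01) and 6 higher and 3 lower in TVB-3166 cells (all genes 27.4% and 27.7%, list median 0.20). THRSP and MID1IP1, related proteins that promote lipogenesis, rose by 3.09 ± 0.41 and 2.53 ± 0.19 in ND-646 and by 3.52 ± 0.31 and 2.02 ± 0.14 in TVB-3166 cells. THRSP was also higher in untreated day-7 cells (2.15 ± 0.27), and against these ND-646 was not called (0.96 ± 0.39, edgeR adjusted p = 0.0897). The highest THRSP mean was with palbociclib (102.9 CPM, against 62.12 with ND-646 and 81.85 with TVB-3166). Alisertib cells were also called higher for THRSP against day-0 (2.98 ± 0.21). For MID1IP1 bleomycin cells were called higher against day-0 (1.605 ± 0.18). The MID1IP1 means with doxorubicin, alisertib and palbociclib and in untreated day-7 cells (68.58, 52.29, 91.97 and 40.77 CPM) were above the day-0 mean (28.71 CPM). Of the 6 genes for subunits of AMPK, the kinase that inhibits both carboxylases, 3 were called higher with both inhibitors, namely PRKAA2 (1.87 ± 0.22 and 1.66 ± 0.19), PRKAB1 (1.33 ± 0.16 and 1.25 ± 0.14) and PRKAA1 (0.97 ± 0.26 and 0.80 ± 0.12). The same 3 genes were also called higher against day-0 with bleomycin (1.39 ± 0.22, 1.23 ± 0.15 and 0.67 ± 0.12). Alisertib gave 1.32 ± 0.19, 0.57 ± 0.13 and 0.34 ± 0.10, all called. Their doxorubicin and palbociclib means were also above the day-0 means. PRKAA1 with ND-646 was not called against day-7 cells (0.71 ± 0.26, edgeR adjusted p = 0.07). PRKAB2 was called with TVB-3166 (0.58 ± 0.16) and not with ND-646 (0.45 ± 0.24), and with neither against day-7 cells (0.02 ± 0.11 and -0.11 ± 0.21). PRKAG1 (-0.10 ± 0.16 with ND-646 and -0.12 ± 0.09 with TVB-3166) and PRKAG2 (-0.18 ± 0.16 and -0.14 ± 0.12) were not called, and against day-7 cells PRKAG2 fell by 0.47 ± 0.14 and by 0.44 ± 0.11 (adjusted p = 0.03 and 0.00611). PRKAB2, PRKAG1 and PRKAG2 were named after their values were seen. Both biotin genes fell, SLC5A6, a biotin transporter, by 0.91 ± 0.17 and by 0.80 ± 0.13, and HLCS, which attaches biotin to carboxylases, by 0.46 ± 0.15 and by 0.55 ± 0.10. HLCS was also called lower against day-0 with bleomycin (-0.53 ± 0.12) but not with alisertib (-0.15 ± 0.10), and SLC5A6 was not called with bleomycin (-0.09 ± 0.16). In TVB-3166 cells AASDHPPT (-0.26 ± 0.09), which activates the carrier domain of FASN and was named after its value was seen, was also lower.

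In the list of citrate and acetyl-CoA supply 1 of 6 was higher and 1 lower in ND-646 cells (all genes 19.1% and 18.8%, list median log2 fold change -0.08), and 2 were higher and 1 lower in TVB-3166 cells (all genes 27.4% and 27.7%, list median 0.25). These shares lay near those of all genes. CS, mitochondrial citrate synthase, fell by 0.72 ± 0.14 and by 0.71 ± 0.10, and ACSS3, a mitochondrial acyl-CoA synthetase, rose by 0.54 ± 0.14 and 0.80 ± 0.09. CS was also called lower against day-0 with bleomycin (-0.47 ± 0.10) and alisertib (-0.57 ± 0.08). Its doxorubicin and palbociclib means (307.2 and 327.4 CPM) were below the day-0 mean (480.7 CPM). Against day-7 cells ACSS3 was not called with ND-646 (0.27 ± 0.14, edgeR adjusted p = 0.167). SLC25A1, the citrate exporter of mitochondria, rose by 0.78 ± 0.16 in TVB-3166 cells and was at 0.57 ± 0.29 in ND-646 cells (edgeR adjusted p = 0.15), whose libraries held 393, 174 and 194 CPM. Against the 4 other drugs SLC25A1 was higher by 1.02 ± 0.15 (adjusted p = 2.58e-05).

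Mitochondrial fatty acid synthesis, the pathway of MCAT, had 1 of 8 genes lower with ND-646 (all genes 18.8%) and 3 of 8 lower with TVB-3166 (all genes 27.7%), and 0 higher (all genes 19.1% and 27.4%, list median log2 fold change -0.25 and -0.23). MECR, its enoyl reductase, fell by 0.51 ± 0.16 and by 0.51 ± 0.12. NDUFAB1, the acyl carrier protein (-0.61 ± 0.11), and HSD17B8 (-0.41 ± 0.13), both named after their values were seen, were lower in TVB-3166 cells. With ND-646 they were not called (-0.39 ± 0.24 and -0.25 ± 0.23), though HSD17B8 was against day-7 cells (-0.73 ± 0.21, edgeR adjusted p = 0.0302). Bleomycin cells also had MECR (-0.41 ± 0.14), NDUFAB1 (-0.72 ± 0.12) and HSD17B8 (-0.55 ± 0.16) called lower against day-0. HSD17B8 means were lowest with doxorubicin and palbociclib (6.83 and 6.84 CPM, against 10.39 with TVB-3166). ACSF3, which makes malonyl-CoA in mitochondria, was called with neither lipogenesis inhibitor (0.30 ± 0.20 and 0.28 ± 0.12).

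CPT1A, the main non-muscle form of the oxidation step that malonyl-CoA blocks, held 322, 326 and 324 CPM in day-0, 85.2, 127 and 115 CPM in ND-646 and 109.5, 117 and 124 CPM in TVB-3166 libraries, with no overlap with day-0. It fell by 1.58 ± 0.18 and by 1.47 ± 0.09 on the log2 scale, and was lower than with the 4 other drugs (-1.18 ± 0.08, edgeR adjusted p = 6.03e-09). Bleomycin cells were also called lower for CPT1A against day-0 (-0.60 ± 0.10), and alisertib cells were not called (-0.16 ± 0.09). The palbociclib, doxorubicin and untreated day-7 means (225.1, 310.7 and 283.2 CPM) were below the day-0 mean (323.9 CPM). Of the 4 tested genes of this list, CPT1B, the muscle form named after its value was seen, was the other one called. It was higher in TVB-3166 cells (2.72 ± 0.31) and not called in ND-646 cells (1.49 ± 0.69, edgeR adjusted p = 0.119). The ND-646 libraries held 2.23, 18.8 and 20.9 CPM. CPT1B was also called higher against day-0 with alisertib (2.15 ± 0.39). Its bleomycin, doxorubicin, palbociclib and untreated day-7 means (9.82, 15.92, 24.66 and 9.41 CPM) were above the day-0 mean (4.98 CPM). With ND-646 1 of the 4 genes was lower and 0 higher (all genes 18.8% and 19.1%), and with TVB-3166 1 was lower and 1 higher (27.7% and 27.4%). The list median was -0.37 with ND-646 and -0.25 with TVB-3166.

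**Figure D2:**
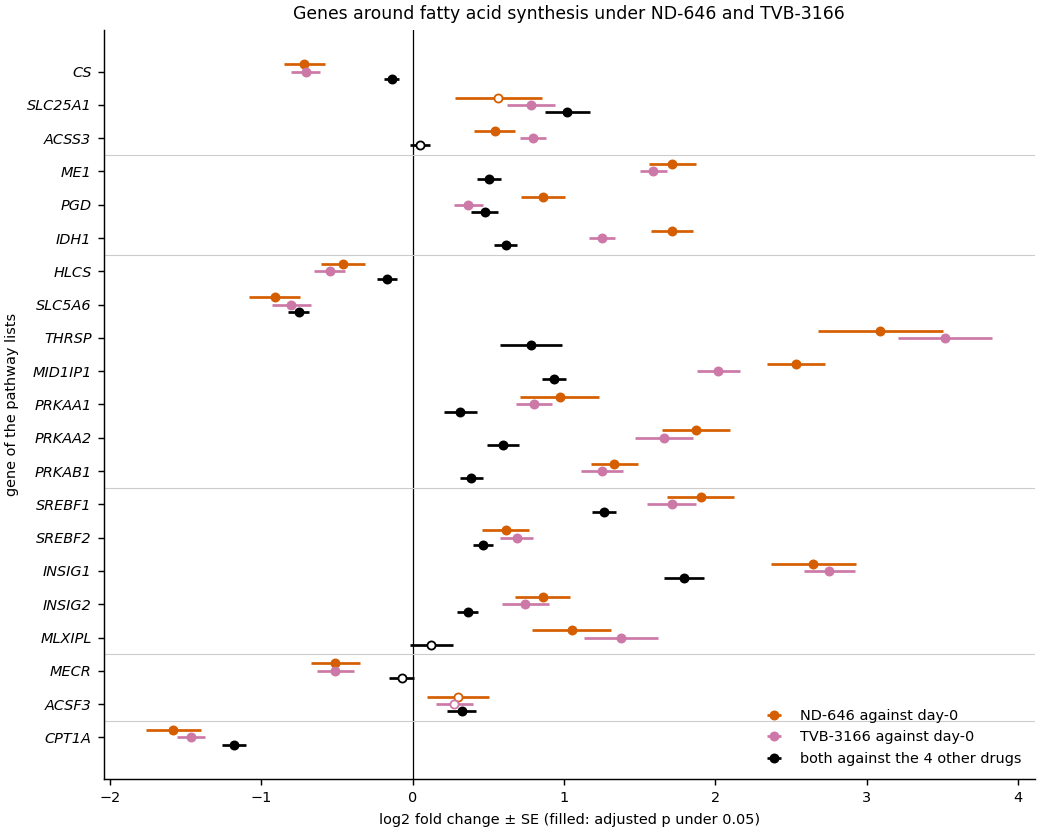
Log2 fold change (x axis, points with ± SE from edgeR) of 21 genes of the pathway lists (y axis) with ND-646 and with TVB-3166 against untreated day-0 cells, and of both inhibitors against the 4 other drugs. Called changes are filled, and INSIG1, SREBF1 and MID1IP1 lay right of 0 and CPT1A and SLC5A6 left of 0 in all 3 comparisons.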

How the data were processed

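RNA of SKBr3 cells was sequenced in 24 libraries (8 groups of 3). The authors aligned reads to GRCh37 with HISAT2 and assembled them with StringTie, per the submitters' processing notes. The deposited values are whole-number counts per gene, with no normalization, for 14493 genes, each with at least 1 count in every library. The labels name a stranded mRNA library kit and the study's methods a total RNA kit, and the counting and strand settings are not given in the sources used here.

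Groups were taken from the labels. Counts were fitted pairwise with edgeR 4.0.16 in R 4.3.3 (TMM, filterByExpr, quasi-likelihood test, 2-sided), with Benjamini-Hochberg adjustment over all genes tested and a threshold of 0.05, in 14 pairwise comparisons and 1 contrast over the 18 treated libraries. Each SE was derived from that test, as the absolute log2 fold change divided by the square root of the F statistic. The fit was tested on simulated data. Alternatives were DESeq2 1.42.0, RLE size factors, no filter, all 24 libraries in one fit, a replicate block, and leaving out each library in turn. Levels are CPM with TMM factors over all 24 libraries, and levels per length use the GENCODE 44 canonical transcript lifted to GRCh37. MLYCD was left out of the latter, since its annotated length is uncertain. OLAH rested on 2 to 19 counts per library under the lipogenesis inhibitors.

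Replicate numbers are shared between groups. Same-numbered libraries deviated together, with every correlation over 0.1, in bleomycin against day-7 (0.107 to 0.142), alisertib against day-7 (0.105 to 0.218) and TVB-3166 against ND-646 (0.213 to 0.380), and this pairing was read from the data, not from the labels. In the other 11 pairwise comparisons the numbers were not taken as pairs.

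The 8 genes and the 6 pathway lists were chosen with earlier results of these data known. The genes named are the 8 members, the 2 genes nearest to each in pattern, list genes called against day-0 under both lipogenesis inhibitors, and SREBF1, INSIG1, SLC25A1, CPT1A, ACSF3, THRSP and MID1IP1 whatever their values. Other list genes are said to be named after their values were seen. SLC25A20, on the list of CPT1 genes, was not analysed here, and 1 gene of the NADPH list is not reported here, so no count is given for that list.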

Additional observations from a re-analysis of the deposited data

How the results depend on the processing

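Of 119 results of a gene in a comparison, 64 were called. DESeq2 kept all 64 and added 5, RLE size factors lost 1 (MCAT with doxorubicin against day-0), no filter lost 4 (FASN with bleomycin, ACACA with palbociclib and ACACB with untreated culture against day-0, and MLYCD with ND-646 against day-7), and all 24 libraries in one fit lost 10 and gained 7. FASN, ACSS2 and ACACB in ND-646 and TVB-3166 cells, and OLAH, ACLY and ACACA in TVB-3166 cells, kept their calls against day-0 in every alternative run. The count of called members in untreated day-7 against day-0 cells was 1, and 3 with DESeq2, 0 with no filter and 3 with the replicate block. With all 24 libraries in one fit 1 member was called instead of 2 with bleomycin, instead of 4 with alisertib and instead of 2 with doxorubicin (against day-7), and 2 instead of 0 between TVB-3166 and ND-646. That last count was 1 with DESeq2. The causes of these differences were not tested.

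With the replicate block, where the numbers paired the libraries, ACLY with bleomycin against day-7 (-0.26), ACACB with alisertib against day-7 (-0.22) and ACACB between TVB-3166 and ND-646 (1.62, making 1 call) were gained, and no other call changed in those 3 comparisons. In the others the libraries share only a number: there the block lost 1 call and gained 5, and it was not read as a change in effect.

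Leaving out 1 library at a time, the number of members called against day-0 was 3 to 6 (ND-646), 6 to 7 (TVB-3166), 3 to 5 (bleomycin), 5 to 6 (alisertib), 3 to 5 (doxorubicin), 3 to 6 (palbociclib) and 0 to 1 (untreated day-7). Against day-7 it was 4 to 7, 6 to 7, 1 to 3, 2 to 4, 1 to 2 and 2 to 3 in the same order of drugs, 0 to 1 between TVB-3166 and ND-646, and 5 to 7 for the lipogenesis inhibitors against the 4 other drugs. The direction turned in 17 results that were not called. Their log2 ranges were, against day-7, -0.080 to 0.12 (ACLY, ND-646), -0.14 to 0.067 (ACACA, bleomycin), -0.050 to 0.12 (FASN, bleomycin), -0.012 to 0.13 (MLYCD, bleomycin), -0.015 to 0.25 (OLAH, bleomycin), -0.11 to 0.014 (MCAT, alisertib), -0.014 to 0.15 (MLYCD, alisertib), -0.30 to 0.0055 (OLAH, alisertib), -0.020 to 0.051 (ACLY, doxorubicin), -0.025 to 0.18 (ACSS2, doxorubicin), -0.069 to 0.25 (FASN, doxorubicin), -0.045 to 0.079 (MLYCD, doxorubicin) and -0.016 to 0.046 (ACLY, palbociclib). Between TVB-3166 and ND-646 they were -0.13 to 0.27 (ACACA), -0.21 to 0.031 (FASN) and -0.065 to 0.21 (MCAT), and for the lipogenesis inhibitors against the 4 other drugs -0.19 to 0.035 (MCAT). With all 24 libraries in one fit ACLY with doxorubicin against day-7 was -0.00429 (0.02 in the pairwise fit).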
